A study of Mus musculus with 6 samples.

Results

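The genes described here are 7 long noncoding host genes of small nucleolar RNAs (snoRNAs), namely Snhg1, Snhg3, Snhg6, Snhg8, Snhg12, Snhg18 and Gas5, and the nuclear long noncoding RNAs Malat1 and Neat1, that is 9 of the 20756 Ensembl genes in the deposited matrix. They were chosen by name. The difference between the groups in Malat1 and Snhg18 led to the choice, so the values of both genes in that comparison are given as a description with no test. All 9 genes were detected in all 6 libraries, with 26 reads or more each. All 9 passed the filter on low values, which asked for 5 CPM or more (reads scaled to a total of 1000000 per library) in 3 or more libraries and left 9558 genes.

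Most snoRNAs of mammals are cut from the introns of a longer host transcript, and they then guide chemical modification or cleavage of ribosomal RNA within protein complexes called snoRNPs. Box C/D snoRNAs guide ribose methylation and box H/ACA snoRNAs guide pseudouridylation. The spliced transcript of a noncoding host such as Gas5 carries short reading frames and is known to be degraded by nonsense-mediated decay once ribosomes reach it, whereas Malat1 stays in nuclear speckles and the long isoform of Neat1 is the scaffold of paraspeckles.

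RNA came from mouse tumor organoids (MTOs), epithelial cultures of intestinal tumor cells of the C57BL/6 strain. They grew in a medium with EGF and received no treatment. In 3 libraries (sgPrkci, replicates 10, 11 and 12) the MTOs carried a CRISPR guide against Prkci, which encodes the atypical protein kinase C isoform PKCλ/ι, and in the other 3 (sgPrkcz, replicates 13, 14 and 15) a guide against Prkcz, which encodes PKCζ. The tumor mutations that all these MTOs share, and whether each line was a single clone, were not given in the sources used here. Control-guide MTOs were not analysed here, so every direction is sgPrkci relative to sgPrkcz. Groups were taken from the GEO labels. The source data of the study list the same libraries under the opposite names, and with those names every direction below would reverse.

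The libraries held 1593480 to 2815760 reads, so that 1 read was worth 0.355 to 0.628 CPM. The tags of the targeted genes are no check of the labels, since small deletions at a guide site may leave the transcript's end in place. Prkci measured 46.9 to 56.5 CPM in sgPrkci MTOs and 34.5 to 72.3 CPM in sgPrkcz MTOs. Prkcz measured 2.26 to 4.62 and 2.93 to 5.02 CPM. The summed level of 6 epithelial markers was 3589 to 3981 CPM in sgPrkci MTOs and 4313 to 4581 CPM in sgPrkcz MTOs. The 2 leukocyte, 6 fibroblast and 4 endothelial markers in the matrix each summed to at most 2.34 CPM per library, with Col1a2, Col3a1 and Kdr at 0. Of all genes tested, 1377 (14.4%) were higher and 2534 (26.5%) lower in sgPrkci by limma at an adjusted p under 0.05. Their median log2 fold change was −0.11. Scaling by trimmed means of M-values (TMM) moved it to 0.0028, with 1992 genes higher and 1886 lower.

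GENCODE M21 (GRCm38) places 28 snoRNA entries at 26 distinct positions inside the host genes, on their strand. Gas5 holds 10 of them, Snhg1 holds 8, Snhg12 holds 5, Snhg3 holds 2, and Snhg6, Snhg8 and Snhg18 hold 1 each, while Malat1 and Neat1 hold none. One entry of each host other than Gas5 and Snhg1 is shown so that the cargo of the host genes can be read. Capitals mark TGATGA beginning at most 24 bases in and CTGA within the last 20 bases, the letters of boxes C and D. In the other class they mark ACA followed by the last 3 bases, the letters of an H/ACA end, on the strand of the snoRNA.
Snord123 in Snhg18 (chr15:32241853-32241923, minus strand): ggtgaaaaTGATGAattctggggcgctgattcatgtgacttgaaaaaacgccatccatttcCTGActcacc
Snord87 in Snhg6 (chr1:9942463-9942549, minus strand): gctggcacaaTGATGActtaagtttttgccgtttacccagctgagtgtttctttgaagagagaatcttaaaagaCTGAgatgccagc
Snora24 in Snhg8 (chr3:123507937-123508066, minus strand): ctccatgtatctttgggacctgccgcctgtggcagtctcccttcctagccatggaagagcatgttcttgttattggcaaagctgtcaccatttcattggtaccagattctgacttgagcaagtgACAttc
Snora16a in Snhg12 (chr4:132309464-132309600, plus strand): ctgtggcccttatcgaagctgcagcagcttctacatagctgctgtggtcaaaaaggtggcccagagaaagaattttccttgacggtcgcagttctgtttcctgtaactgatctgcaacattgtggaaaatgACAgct
Snora73a in Snhg3 (chr4:132352775-132352979, minus strand): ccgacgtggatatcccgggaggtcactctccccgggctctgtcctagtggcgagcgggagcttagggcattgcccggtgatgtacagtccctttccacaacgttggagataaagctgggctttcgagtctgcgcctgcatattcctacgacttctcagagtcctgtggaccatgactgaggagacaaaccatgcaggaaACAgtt
The letters of boxes C and D were found together in 17 of the 28 entries (60.7%), against 20.3% of the 1558 annotated snoRNA and small Cajal body RNA genes. The ACA ending was found in 7 of 28 (25.0%), against 19.3%. A match of letters is a description and not proof of a working box. Mature snoRNAs have no poly(A) tail. Of the 28 entries, 3 were in the matrix, Snora73b of Snhg3 at 4.67 to 17.0 CPM, Snord87 at 2.64 to 6.04 CPM and Snord123 at 0 to 1.11 CPM. The values of the host genes thus say nothing about the amount of snoRNA.

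Transcripts of many snoRNA hosts and of translation machinery genes begin with a C followed by a run of pyrimidines (C or T), called a TOP motif. Windows around RefSeq start sites (GRCm38.p6) were on hand for all members but Neat1 and Snhg6, with 2 starts for Gas5. A run of at least 5 pyrimidines from the start itself, whatever its first base, was found in Snhg8, Snhg12, Snhg18 and the second start of Gas5. It was found in 4.44% of 32851 windows. The run begins with C in Snhg8 and Gas5 and with T in Snhg12 and Snhg18. The run was 3 long in Snhg1, 1 in Malat1, and 0 in Snhg3 and the first start of Gas5. These stretches of 30 bases, with 10 bases before the start, show the run in capitals.
Snhg8 (chr3:123508317-123508346, minus strand): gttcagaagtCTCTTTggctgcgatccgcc
Snhg12 (chr4:132308668-132308697, plus strand): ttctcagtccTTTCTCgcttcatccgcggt
Snhg18 (chr15:32244643-32244672, minus strand): cccaggccccTCCTCTagccccgcctcttc
Gas5, second start (chr1:161035156-161035185, plus strand): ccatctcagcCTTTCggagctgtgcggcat
Snhg1 (chr19:8723477-8723506, plus strand): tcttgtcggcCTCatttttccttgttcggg
Snhg3 (chr4:132353667-132353696, minus strand): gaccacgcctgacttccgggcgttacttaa
The letters CACGTG, an E-box that MYC and other factors can bind and that reads the same on both strands, were in none of the 8 windows and in 7.15% of all windows. The called host genes below include members with the run and members without it.

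In sgPrkci MTOs the noncoding snoRNA hosts Gas5, Snhg1, Snhg3 and Snhg12 and the paraspeckle RNA Neat1 were lower than in sgPrkcz MTOs, whereas Snhg6 and Snhg8 did not pass the test. Of the 7 genes that did not lead to the choice, 5 were called lower and 0 higher by limma (26.5% and 14.4% of all genes), with a median log2 fold change of −0.43 against −0.11 over all genes (−0.31 against 0.0028 after TMM scaling). In these 5 genes the groups did not overlap, as in 50.0% of all genes. The list was drawn up with results of this comparison known. Neat1, Snhg1, Snhg3, Snhg12 and Gas5 were called lower in each of the 17 alternative analyses, and Snhg6 was called as well when sgPrkci replicate 11 was left out. In bulk RNA fewer cells of a type and less RNA per cell cannot be told apart. The summed level of the 6 epithelial markers was also lower in sgPrkci, but singly they went both ways: Cdh1, Krt18 and Krt19 were called lower, Epcam and Vil1 higher, and Krt8 did not pass (median log2 fold change −0.20, or −0.08 with TMM scaling). Their part in these values was not tested.

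**Figure D1:**
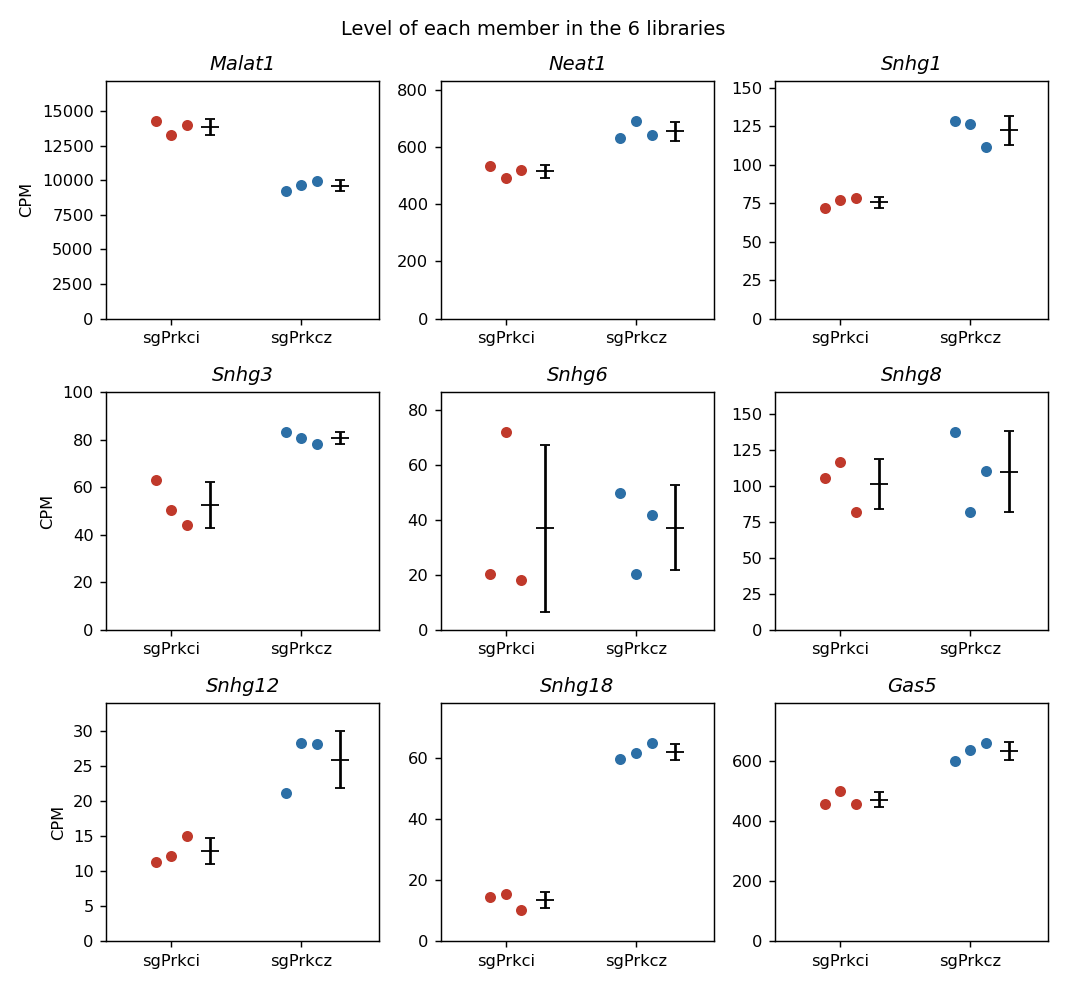
Level of the 9 members in CPM (y axes from 0) in each of the 3 sgPrkci (red) and 3 sgPrkcz (blue) libraries, with the group mean and SD in black (n = 3). Malat1 was higher and Snhg18 lower in every sgPrkci library, Snhg1, Snhg3, Snhg12, Gas5 and Neat1 were lower without overlap, and Snhg6 and Snhg8 spread widely within both groups.

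Gas5 (ENSMUSG00000053332, chr1:161034422-161038539, plus strand) carries mainly box C/D snoRNAs. Its spliced RNA is known to accumulate in cells that stop growing and to bind the glucocorticoid receptor. It measured 456.7, 499.7 and 456.4 CPM in sgPrkci replicates 10, 11 and 12 and 601.9, 638.2 and 661.2 CPM in sgPrkcz replicates 13, 14 and 15. All sgPrkci libraries were thus below all sgPrkcz libraries, with means of 470.9 ± 24.9 and 633.8 ± 29.9 CPM (SD, n = 3). This was a log2 fold change of −0.43 ± 0.07 (SE, limma adjusted p = 5.16e-05), or −0.31 with TMM scaling. Zbtb37, a zinc finger gene that overlaps Gas5 on the other strand, measured 19.8 ± 5.92 and 17.2 ± 3.20 CPM (SD, n = 3, limma adjusted p = 0.575).

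Snhg1 (ENSMUSG00000108414, chr19:8723475-8726443, plus strand) is the host of a cluster of box C/D snoRNAs known as the U22 host gene. It measured 71.7, 77.1 and 78.1 CPM in sgPrkci MTOs and 128.7, 126.8 and 111.8 CPM in sgPrkcz MTOs, again without overlap. Its log2 fold change was −0.69 ± 0.10 (SE, limma adjusted p = 1.09e-05), the smallest adjusted p among the members tested. Relative to Gas5 within each library, Snhg1 was at 0.161 ± 0.00914 in sgPrkci and 0.194 ± 0.0228 in sgPrkcz (SD, n = 3, exact two-sided permutation p = 0.2, where 3 against 3 libraries cannot go below 0.1).

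Snhg3 (ENSMUSG00000085241, chr4:132348014-132353686, minus strand) is the host of the box H/ACA snoRNA U17, which is needed for cleavage of ribosomal RNA precursors and is encoded by Snora73a and Snora73b. It measured 63.0, 50.4 and 44.0 CPM in sgPrkci MTOs and 83.4, 81.0 and 78.4 CPM in sgPrkcz MTOs, with the highest sgPrkci library still below the lowest sgPrkcz library. On the log2 scale the difference was −0.63 ± 0.13 (SE, limma adjusted p = 3.57e-04). Rcc1, the nucleotide exchange factor of the GTPase Ran, overlaps Snhg3 on the same strand and was lower in sgPrkci, at 29.4 ± 4.88 against 54.0 ± 5.58 CPM (SD, n = 3, log2 fold change −0.86, limma adjusted p = 6.28e-05). How reads were shared out between overlapping genes was not given in the sources used here, so the values of Snhg3 and Rcc1 may not be independent. The ratio of Snhg3 to Rcc1 was 1.78 ± 0.121 and 1.51 ± 0.164 (exact two-sided permutation p = 0.2).

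Snhg12 (ENSMUSG00000086290, chr4:132308623-132311024, plus strand) lies near Snhg3 on the opposite strand and carries snoRNAs of both classes. It measured 11.3, 12.1 and 14.9 CPM in sgPrkci MTOs, which is 26 to 42 reads, and 21.1, 28.2 and 28.1 CPM in sgPrkcz MTOs, which is 45 to 57 reads. With a log2 fold change of −0.96 ± 0.19 (SE, limma adjusted p = 4.20e-04) it differed most among the 7 members not used for the choice, and its error was wider than that of the more deeply read Gas5. Relative to Gas5 in the same library it was 0.0273 ± 0.00471 in sgPrkci and 0.0406 ± 0.00484 in sgPrkcz (SD, n = 3, exact two-sided permutation p = 0.1, the smallest possible).

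Snhg6 and Snhg8 differed from the other members by their spread within groups. Snhg6 (ENSMUSG00000098234, chr1:9941959-9944118, minus strand), the host of Snord87, measured 20.4, 71.9 and 18.1 CPM in sgPrkci replicates 10, 11 and 12 and 49.7, 20.1 and 41.5 CPM in sgPrkcz replicates 13, 14 and 15. The groups overlapped across their range, and replicate 11 held 154 reads of Snhg6 whereas replicate 12, with more reads in all, held 51. Its log2 fold change was −0.20 ± 0.34 (SE, limma adjusted p = 0.662). It became −0.82 (limma adjusted p = 0.014) without sgPrkci replicate 11 and 0.15 (adjusted p = 0.785) without replicate 12. The limma SE and p values of Snhg6 and Snhg8 are drawn toward the smaller spread of genes of similar level. Snhg8 (ENSMUSG00000104960, chr3:123507552-123508404, minus strand), the host of Snora24, measured 105.2, 116.3 and 82.0 CPM in sgPrkci MTOs and 137.6, 81.6 and 110.6 CPM in sgPrkcz MTOs. The difference was −0.10 ± 0.15 on the log2 scale (SE, limma adjusted p = 0.608). For both genes the sign of the difference changed between processing alternatives, so neither a difference nor its absence was shown.

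The SD of Snhg6 was 30.4 CPM in sgPrkci MTOs and 15.3 CPM in sgPrkcz MTOs, where counting error alone at these depths gives 3.84 and 4.43 CPM. Pooled over both groups on the log2(CPM + 1) scale its SD was 0.89, against a median of 0.17 over 2346 genes within 1.5-fold of its level, of which 0.0426% had a larger SD. The pooled SD of Snhg8 was 0.32 against a median of 0.12 over 1559 genes, of which 1.22% had a larger one. Of the other members, Snhg3 had a larger SD than the median of similar genes (24.8% above it), as had Snhg18 (31.2%), and Gas5, Neat1, Snhg1 and Snhg12 had smaller ones.

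**Figure D2:**
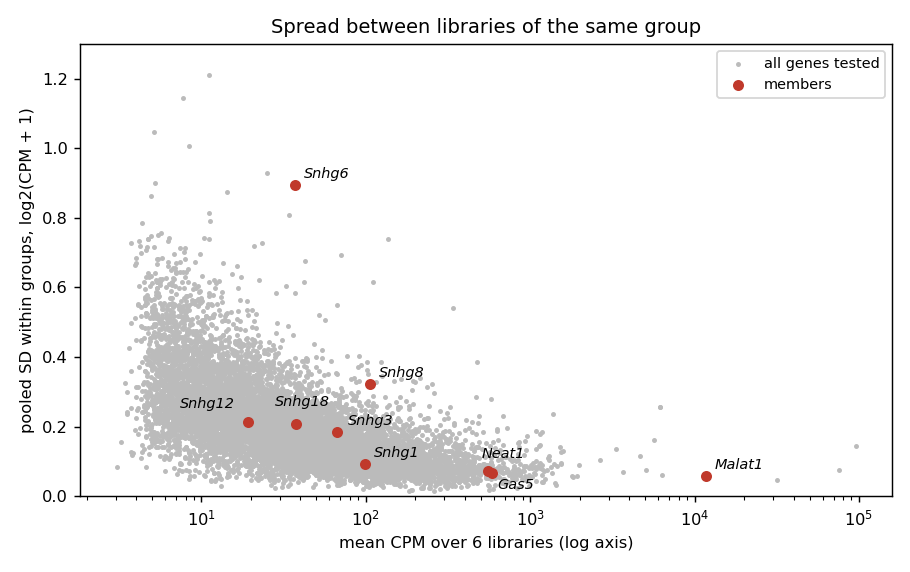
Pooled SD within groups on the log2(CPM + 1) scale (y axis) against the mean CPM over the 6 libraries (x axis, log scale) for each of the 9558 genes tested (grey) and the 9 members (red). Snhg6, at 0.89, and to a lesser degree Snhg8, at 0.32, lie above most genes of similar level. Malat1, at the right, has no gene within 1.5-fold of its level.

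Both genes were highest in replicate 11 of sgPrkci and replicate 13 of sgPrkcz and lowest in replicates 12 and 14. Their deviations from the group means on the log2(CPM + 1) scale had a Pearson's r of 0.79 over 6 libraries, given as a description, since all genes of a library share its depth and scaling. Among 4705 genes at or above the median level of 32.2 CPM, those with values most like Snhg6 over the 6 libraries included Tmem128 and Hacd2, an enzyme of very long chain fatty acid elongation (r = 0.97 for each). Those most like Snhg8 were Hprt, the purine salvage enzyme (r = 0.99), Eya3 (r = 0.99) and Sde2 (r = 0.98). These genes were added after their spread had been seen. Snhg6 had the order of depth in sgPrkcz and the reverse of it in sgPrkci. Replicates 10, 11 and 12 held 2651355, 2141125 and 2815760 reads, of which ribosomal RNA-like reads took 21.2%, 21.5% and 24.0%. Replicates 13, 14 and 15 held 2696430, 1593480 and 1709034 reads, with shares of 17.6%, 17.8% and 19.4%. What separated replicates within a group was not given in the sources used here, and the part of depth and of these reads in the spread was not tested.

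Neat1 (ENSMUSG00000092274, chr19:5824708-5845478, minus strand) is transcribed as a short polyadenylated isoform and a long one whose 3′ end is formed by RNase P cleavage and has no poly(A) tail. It measured 534.1, 490.9 and 520.6 CPM in sgPrkci MTOs and 630.5, 692.2 and 643.1 CPM in sgPrkcz MTOs, so all sgPrkci libraries were lower. The difference was −0.35 ± 0.07 on the log2 scale (SE, limma adjusted p = 4.44e-04), and −0.23 (limma adjusted p = 0.0132) with TMM scaling, the smallest change among the 5 called members. Priming on a poly(A) tail favors the short isoform, and the annotated ends are shown for that reason. Capitals mark AATAAA or ATTAAA, the letters of the poly(A) signal, in the last 40 bases.
Neat1-202, short transcript of 3004 bases (chr19:5842307-5842346, minus strand): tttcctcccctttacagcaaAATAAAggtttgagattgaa
Neat1-201, long transcript of 20771 bases (chr19:5824708-5824747, minus strand): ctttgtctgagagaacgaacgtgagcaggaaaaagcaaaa
One of these hexamers was present in 32.6% of 141704 annotated transcripts. The value given for Neat1 therefore cannot be read as the level of the long, paraspeckle-forming isoform.

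Malat1 (ENSMUSG00000092341, chr19:5795690-5802672, minus strand) had the opposite direction to Neat1, its neighbor on the chromosome. It measured 14306, 13243 and 13994 CPM in sgPrkci MTOs and 9198, 9656 and 9976 CPM in sgPrkcz MTOs, with means of 13848 ± 546.8 and 9610.0 ± 391.2 CPM (SD, n = 3). Malat1 took 1.38% ± 0.0547 of all reads in sgPrkci and 0.961% ± 0.0391 in sgPrkcz (SD, n = 3) and ranked 4 among all genes in every library. In log2 terms it was higher by 0.53, or 0.64 with TMM scaling. Quantile normalization set the difference to 0.00, since a gene of the same rank in every library then receives the same value. The ratio of Malat1 to Neat1, which does not depend on the scaling, was 26.8, 27.0 and 26.9 in sgPrkci and 14.59, 13.95 and 15.51 in sgPrkcz.

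The annotated end of Malat1 carries the letters of a poly(A) signal, and a run of 12 A begins 310 bases before the end. Both are shown because such libraries are primed with oligo(dT), which can also meet a run of A that the gene encodes. Such runs are not particular to Malat1. The longest transcript of Snhg12 holds a run of 12 A, beginning 1079 bases before its end. That of Snhg18 holds a run of 10 A, beginning 1043 bases before its end. Capitals mark the run and the hexamer of Malat1.
Malat1-201, run of A (chr19:5795975-5796014, minus strand): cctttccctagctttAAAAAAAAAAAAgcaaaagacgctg
Malat1-201, annotated end (chr19:5795690-5795729, minus strand): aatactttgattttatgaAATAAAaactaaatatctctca
The mature RNA of Malat1 is known to end at a triple helix formed with an encoded A-rich tract, after RNase P cleavage. A run inside the annotated transcript may thus lie at the end of the mature RNA. From which of these places the Malat1 reads came was not analysed here, as the matrix gives 1 value per gene. Reads of the ribosomal RNA-like gene Gm42418 and of mt-Rnr1 and mt-Rnr2, the ribosomal RNAs of mitochondria, took 21.2% to 24.0% in sgPrkci and 17.6% to 19.4% in sgPrkcz (exact two-sided permutation p = 0.1, the smallest possible). Gm42418 alone was higher in sgPrkci by a log2 fold change of 0.42 (limma adjusted p = 0.00191), and leaving these 3 genes out of the totals gave Malat1 a log2 fold change of 0.60. The part of priming in the values of Malat1, Snhg12 and Snhg18 was not tested.

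Snhg18 (ENSMUSG00000096956, chr15:32240565-32244662, minus strand), host of Snord123, had the largest difference of the 9 genes. It measured 14.3, 15.4 and 10.3 CPM in sgPrkci MTOs, which is 29 to 38 reads, and 59.7, 61.5 and 64.9 CPM in sgPrkcz MTOs, which is 98 to 161 reads. All sgPrkci libraries were far below all sgPrkcz libraries. Means were 13.3 ± 2.69 and 62.0 ± 2.66 CPM (SD, n = 3), a ratio of sgPrkcz to sgPrkci of 4.65. The log2 fold change was −2.15, and it was −1.63 with a pseudocount of 10 in place of 1.

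Snhg18 starts head to head with Sema5a, with 147 bases between the annotated starts. Sema5a encodes semaphorin 5A, a transmembrane guidance protein. Sema5a was lower in sgPrkci as well, at 12.1, 8.41 and 13.1 CPM against 47.8, 53.3 and 48.0 CPM (log2 fold change −2.07 ± 0.18 SE, limma adjusted p = 6.36e-09). The ratio of Snhg18 to Sema5a was 1.19, 1.83 and 0.784 in sgPrkci and 1.248, 1.153 and 1.354 in sgPrkcz, so the values in the sgPrkci libraries lay on both sides of those in the sgPrkcz libraries. The stretch between the starts is printed, 5′ to 3′ toward Snhg18, because both genes begin at its edges. Capitals mark GGGCGG or its reverse complement CCGCCC, the letters of a GC box that Sp1 family factors can bind.
Snhg18 to Sema5a (chr15:32244663-32244809, minus strand): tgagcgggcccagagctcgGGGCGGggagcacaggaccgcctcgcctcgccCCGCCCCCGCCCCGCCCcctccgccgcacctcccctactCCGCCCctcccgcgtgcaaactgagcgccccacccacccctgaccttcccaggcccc
It had a GC content of 78.9% and held GGGCGG 5 times over both strands, counting overlapping matches, where 28.4% of 32851 RefSeq windows of 147 bases before a start held it at least once. The letters CCAAT, the E-box letters named above and the TATA box letters TATAAA, each searched on both strands, were not found in it.

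A second head-to-head pair behaved less evenly. Snhg1 lies 105 bases from Slc3a2, the heavy chain of amino acid transporters, which measured 347.0, 320.4 and 288.4 CPM in sgPrkci MTOs and 408.7, 402.9 and 342.3 CPM in sgPrkcz MTOs (log2 fold change −0.27 ± 0.09 SE, limma adjusted p = 0.0147), with 1 sgPrkci library above 1 sgPrkcz library. The ratio of Snhg1 to Slc3a2 was 0.239 ± 0.0322 in sgPrkci and 0.319 ± 0.00678 in sgPrkcz, lower in all 3 sgPrkci libraries (SD, n = 3, exact two-sided permutation p = 0.1, the smallest possible). Capitals in the stretch between the starts mark TTTATA, which is TATAAA on the other strand.
Snhg1 to Slc3a2 (chr19:8723370-8723474, plus strand): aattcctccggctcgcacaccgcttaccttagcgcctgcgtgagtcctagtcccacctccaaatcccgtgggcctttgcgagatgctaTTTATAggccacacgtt
Its GC content was 56.2%, and of the same motifs searched on both strands it held TATAAA alone, which was found in 5.75% of windows of this length before a RefSeq start.

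Prss12, a serine protease gene 955 bases from Snhg8, went the other way. This is not a head-to-head pair, since the genes run toward each other and that distance lies between their annotated ends. Prss12 was higher in sgPrkci, at 37.0, 36.4 and 46.9 CPM against 19.3, 23.8 and 18.1 CPM (log2 fold change 0.94 ± 0.17 SE, limma adjusted p = 8.93e-05), while Snhg8 itself overlapped between the groups. Other nearest protein-coding genes were lower in sgPrkci. Wdr74 by Snhg1, a ribosome assembly factor, was at 5.66 ± 1.31 against 15.3 ± 1.39 CPM (SD, n = 3, limma adjusted p = 1.46e-04). Sgk3 by Snhg6, a kinase, was at 22.3 ± 2.84 against 35.0 ± 8.07 CPM (adjusted p = 0.00921). Frmd8 by Neat1 did not pass the test (log2 fold change −0.15, limma adjusted p = 0.451), nor did Trnau1ap and Phactr4 by Snhg3 and Snhg12 or Tcf24 by Snhg6. Ndst3 and Rab42 were at 0 in all libraries, Serpinc1 was below the filter, and Tas2r119 was not analysed here.

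**Figure D3:**
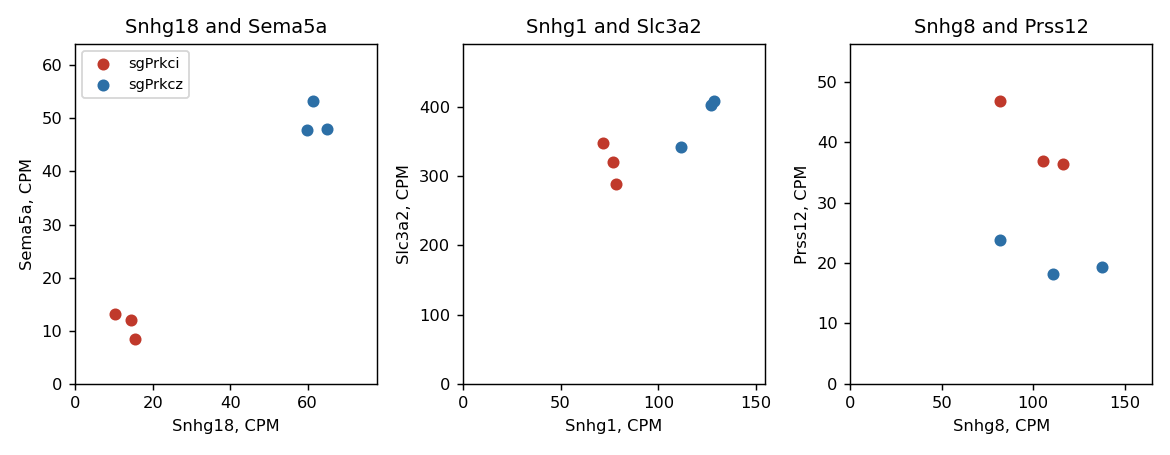
Levels in CPM of 3 host genes (x axes) and the protein-coding gene next to each (y axes) in the 3 sgPrkci (red) and 3 sgPrkcz (blue) libraries, both axes from 0. Snhg18 and Sema5a separate the groups in the same direction, Snhg1 separates them with a smaller difference in Slc3a2, and Prss12 separates them where Snhg8 does not.

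Among the 4705 genes at or above the median level, those whose log2(CPM + 1) was most like that of a member over the 6 libraries were named as a description, since groups that lie apart give many genes a high r. For Malat1 they were Mien1, Tmem63a and the interferon-induced gene Ifitm1 (Pearson's r = 1.00 for each to 2 decimals). For Neat1 they were Fnbp1l, Samm50, a part of the mitochondrial sorting and assembly machinery, and Fnbp4. Crebbp, a histone acetyltransferase, Dcbld2 and Cgnl1 came closest to Snhg18, and Htatsf1, a splicing-related factor, the deubiquitinase Usp16 and the proteasome subunit Psmc3 closest to Gas5, all with r of 1.00 to 2 decimals. The genes may differ from the member in size: Ifitm1 measured 181.9 ± 20.8 CPM in sgPrkci MTOs and 68.9 ± 7.91 CPM in sgPrkcz MTOs, a ratio of 2.64 where that of Malat1 was 1.44. Crebbp had a ratio of sgPrkcz to sgPrkci of 1.23 where that of Snhg18 was 4.65.

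Further long noncoding snoRNA hosts were lower in sgPrkci too. A list of 14 others was drawn up, of which 6 hold an annotated snoRNA and passed the filter. Of these 6, 5 (83.3%) were lower and 0 higher, against 26.5% and 14.4% of all genes. Their median log2 fold change was −0.86 (−0.75 with TMM scaling). Zfas1, host of box C/D snoRNAs, measured 60.7, 86.9 and 60.7 CPM in sgPrkci MTOs and 120.2, 121.7 and 117.0 CPM in sgPrkcz MTOs (limma adjusted p = 1.64e-05). Snhg9 was at 12.7 ± 3.17 against 31.8 ± 6.73 CPM and Snhg15 at 4.09 ± 1.78 against 13.1 ± 2.48 CPM (SD, n = 3). Snhg5 was at 73.6 ± 4.45 against 105.1 ± 5.94 CPM, and Snhg17 was called as well, while Snhg20, at 7.46 to 12.8 against 10.8 to 14.6 CPM, did not pass the test. The list also held Mir17hg, the host of a microRNA cluster and not of snoRNAs, which was lower by itself (log2 fold change −0.90, limma adjusted p = 0.00534) and was left out of these counts after its value had been seen.

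In the wider set of annotated hosts most of the called genes were lower, as they were among all genes tested in the main analysis. Outside the members, 345 genes held an annotated snoRNA on their strand and 217 passed the filter. Of these, 94 (43.3%) were lower and 17 (7.83%) higher, against 26.5% and 14.4% of all genes. The median log2 fold change was −0.21 against −0.11 over all genes. With TMM scaling 73 were lower and 29 higher with a median of −0.10, against 1886, 1992 and 0.0028 over all 9558 genes. DESeq2 on recovered reads called 58 of these hosts lower, and 1350 of all 9558 genes. Of the 15 tested hosts that GENCODE M21 does not class as protein-coding, 11 were lower and 0 higher with a median of −0.51 (−0.39 with TMM scaling), and of the 202 it classes as protein-coding, 83 were lower and 17 higher with a median of −0.18. These 15 take in the 6 listed hosts described before them, and of the 9 others 6 were lower and 0 higher, with a median of −0.47 (−0.36 with TMM scaling). The 6 include Cct6a, which encodes a chaperonin subunit but is classed there as a processed transcript (360.9 ± 5.42 against 467.1 ± 19.6 CPM, SD, n = 3). Among all 217 the lowest adjusted p values belonged to Ptprb, Top2a, Dkc1 and Prrg1. Ptprb, a receptor tyrosine phosphatase known from endothelial cells, measured 3.02, 1.87 and 1.78 CPM against 103.1, 80.9 and 104.2 CPM. The DNA topoisomerase Top2a was at 661.1 ± 24.1 against 1291 ± 59.5 CPM (SD, n = 3), and Prrg1 at 0.754, 0.467 and 0.355 CPM against 23.0, 16.3 and 22.2 CPM. The endothelial markers Pecam1, Cdh5, Kdr and Vwf were each at 0.628 CPM or less in every library.

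Among these hosts are genes for ribosomal proteins, which also have TOP messages. Of 30 such hosts, 13 (43.3%) were lower and 2 (6.67%) higher, against 26.5% and 14.4% of all genes. Their median was −0.18, against −0.11 over all genes. With TMM scaling 9 were lower and 5 higher, against 1886 and 1992 of all 9558 genes. Rpl23 was at 653.2 ± 19.4 against 1022 ± 102.4 CPM and Rps12 at 755.0 ± 51.8 against 1075 ± 49.3 CPM, while Rps20 was higher in sgPrkci by 0.38 ± 0.07 on the log2 scale (SE, limma adjusted p = 8.08e-05).

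Among genes for the proteins that bind snoRNAs or assemble their complexes, 10 of 17 (58.8%) were lower in sgPrkci, against 26.5% of all genes. Of the others, 0 were higher and 7 did not pass the test. The median log2 fold change of the list was −0.70 (−0.59 with TMM scaling, with 10 called). Dkc1, the catalytic subunit of H/ACA snoRNPs, measured 109.0, 114.9 and 113.3 CPM in sgPrkci MTOs and 252.2, 283.0 and 242.8 CPM in sgPrkcz MTOs (log2 fold change −1.20 ± 0.09 SE, limma adjusted p = 3.72e-10), a separation far wider than the spread of either group. Nop58 was at 146.8 ± 21.6 against 335.0 ± 33.9 CPM and Nop56 at 39.8 ± 7.44 against 100.2 ± 8.31 CPM (SD, n = 3). Both are core proteins of box C/D snoRNPs and themselves snoRNA hosts. Nolc1, a nucleolar and Cajal body chaperone of snoRNPs, was at 50.2 ± 5.87 against 96.5 ± 8.39 CPM. The snoRNP genes and hosts share 3 of these names, Dkc1, Nop58 and Nop56, so the lists are not separate evidence.

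**Figure D4:**
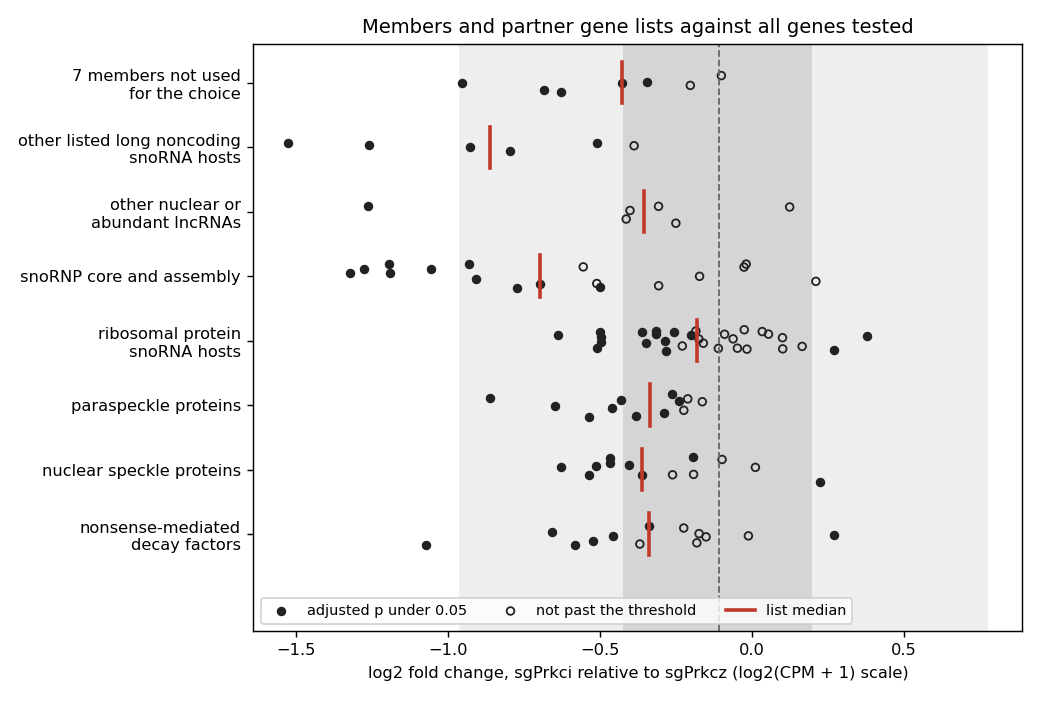
Log2 fold change, sgPrkci relative to sgPrkcz on the log2(CPM + 1) scale, of each tested gene in 8 lists (filled points: limma adjusted p under 0.05; open points: not past it; red bar: median of the list). The dashed line is the median of all 9558 genes (−0.11) and the darker and lighter bands span their middle 50% and 90%; the medians of the snoRNP list (−0.70) and of the other noncoding snoRNA hosts without Mir17hg (−0.86) are shown beside that of the 7 members (−0.43).

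Genes for proteins of the bodies in which Neat1 and Malat1 reside were measured as well. Of 12 genes for paraspeckle proteins 9 were lower and 0 higher with a median of −0.34, of which 6 were called with TMM scaling, where Matr3, Cpsf6 and Nono no longer passed. The RNA-binding protein gene Hnrnpm was at 291.5 ± 31.1 against 455.9 ± 24.4 CPM (SD, n = 3). Tardbp was at 120.4 ± 11.1 against 174.6 ± 7.34 CPM and Sfpq at 195.0 ± 4.28 against 263.1 ± 7.70 CPM (SD, n = 3). Of 13 genes for nuclear speckle proteins 8 (61.5%) were lower and 1 (7.69%) was higher, against 26.5% and 14.4% of all genes. Their median was −0.36. With TMM scaling 7 were lower and 1 was higher. The lower ones included the splicing factor genes Srsf1, Srsf2, Srsf3 and Srsf6 (log2 fold change −0.63, −0.47, −0.47 and −0.54). The higher one was Srrm1 (0.22, limma adjusted p = 0.015). Srrm1 encodes a splicing coactivator of nuclear speckles.

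Nonsense-mediated decay is known to degrade the spliced transcript of noncoding hosts such as Gas5, and its part in the levels of the host genes was not tested. Of 13 tested genes for factors of this decay, 6 (46.15%) were lower and 1 (7.69%) higher, against 26.5% and 14.4% of all genes. Their median was −0.34, against −0.11 over all genes. With TMM scaling 4 were lower and 1 higher, against 1886 and 1992 of all 9558 genes. Eif4a3, a core subunit of the exon junction complex, was at 75.6 ± 6.08 against 160.1 ± 8.25 CPM (SD, n = 3, limma adjusted p = 1.28e-08), and Magoh, its partner in that complex, at 83.6 ± 5.75 against 123.0 ± 28.9 CPM (adjusted p = 0.00261). Upf3b (log2 fold change −0.34, adjusted p = 0.0109) and Smg5 (−0.66, adjusted p = 0.0134) were lower. Of 6 other nuclear or abundant long noncoding RNAs that passed the filter, Pvt1 alone was called, at 2.49 ± 0.464 against 7.41 ± 1.31 CPM (limma adjusted p = 0.00147), and Tug1, Firre, Dleu2, Airn and Mir22hg did not pass, with log2 fold changes of −0.41 to 0.12.

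**Figure D5:**
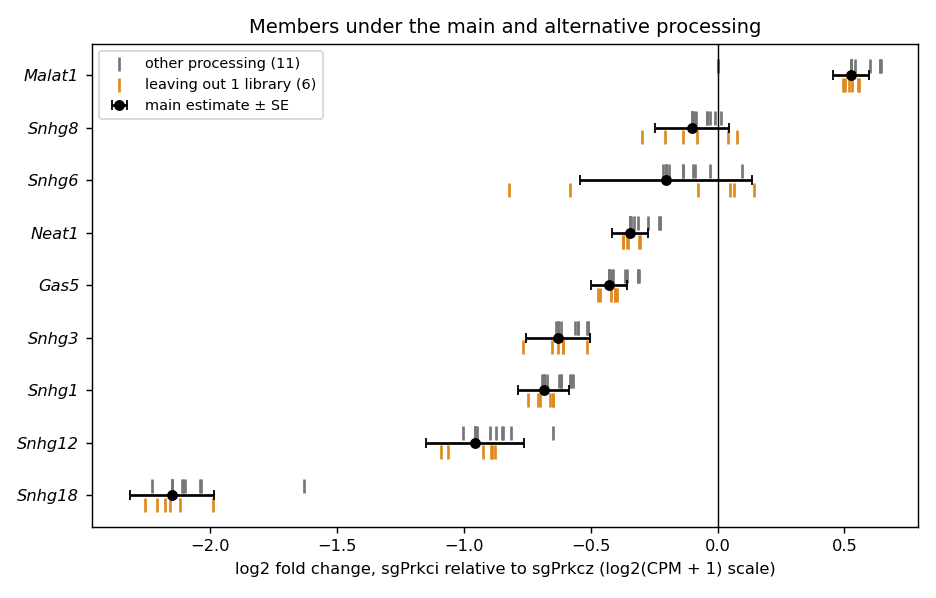
Log2 fold change of the 9 members, sgPrkci relative to sgPrkcz, in the main analysis (black point ± SE), under 11 other ways of processing (grey ticks) and with 1 of the 6 libraries left out (orange ticks). Neat1, Gas5, Snhg3, Snhg1, Snhg12 and Snhg18 stay below 0 throughout, Snhg6 and Snhg8 cross 0, and Malat1 is above 0 except at 0.00 with quantile normalization.

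The 7 host genes together took 0.0763% ± 0.00718 of the reads in sgPrkci and 0.107% ± 0.00309 in sgPrkcz (SD, n = 3). Neat1 took 0.0515% ± 0.00221 and 0.0655% ± 0.00326 (exact two-sided permutation p = 0.1 for Neat1, the smallest possible). The called members kept one direction whichever library was left out, with adjusted p values over the 17 alternatives of 2.36e-04 to 0.0355 for Neat1, 3.24e-08 to 0.00357 for Snhg1, 8.92e-06 to 0.0142 for Snhg3, 6.08e-05 to 0.00922 for Snhg12 and 4.48e-06 to 0.0173 for Gas5.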

How the data were processed

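Total RNA of the 6 MTO libraries was made into QuantSeq 3′ forward libraries and sequenced single-end (75 bases). The authors deposited gene values in CPM, which sum to 1000000 per library. The build per the labels was GRCm38, and the software list of the study names the Lexogen QuantSeq DE pipeline. Molecular identifiers were an option of the kit. Whether they were counted, the aligner, the strand setting and the annotation were not given in the sources used here. For differential expression the study ran DESeq2. Whole reads were recovered from the deposited CPM, with 100% of values whole within 0.01, giving 1593480 to 2815760 reads per library.

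The 9558 genes that reached 5 CPM in 3 or more libraries were tested as log2(CPM + 1) with limma 3.58.1 (intensity trend, R 4.3.3) and Benjamini-Hochberg adjustment over all of them, at 0.05. A fold change on that scale understates the change of low genes. edgeR 4.0.16 on recovered reads called 3941 genes (2011 higher, 1930 lower), and DESeq2 1.42.0, TMM and quantile scaling, other filters and pseudocounts, other totals and leaving out each library were the alternatives. The tests were checked on simulated data. The SE and p values of limma combine a gene's own spread between these libraries with the spread of genes of similar level. For genes of unusually wide spread, such as Snhg6 and Snhg8, they are smaller than the gene's own values alone would give. Nothing says what separated the replicates.

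Members and lists were chosen with earlier results of these data known. Beside the members, up to 4 genes per list with the smallest adjusted p were named, with the nearest protein-coding neighbors and the 3 genes most alike to Malat1, Neat1, Snhg18 and Gas5. Some genes that this rule picked are not reported here by name. Symbols were found for 20675 identifiers. Annotation came from GENCODE M21, and start sites from RefSeq (GRCm38.p6).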

Additional observations from a re-analysis of the deposited data

How the results depend on the processing

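Across 17 alternatives the members not used for the choice gave 5 lower calls, except 6 without sgPrkci replicate 11, and 0 higher calls, and the range over the 6 analyses that left out a library was 5 to 6. Annotated hosts called lower numbered 94 in the main analysis, 58 with DESeq2 and 78 to 86 with a library left out, and those called higher numbered 17, but 29 with TMM scaling, 29 with edgeR and 26 with quantile normalization (12 to 19 with a library left out). The snoRNP list gave 8 to 11 lower calls.

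The log2 fold change of Snhg6 turned from −0.20 to 0.10 with DESeq2, and without a library it ranged from −0.82 (replicate 11, adjusted p = 0.014) to 0.15, being 0.06 without replicate 10, 0.15 without replicate 12 and 0.05 without replicate 13. That of Snhg8 turned from −0.10 to 0.01 with TMM scaling, and without a library it ranged from −0.30 to 0.075, being 0.04 without replicate 12 and 0.075 without replicate 13. Malat1 moved to 0.64 with TMM scaling, edgeR or DESeq2. The causes of these shifts were not tested. DESeq2 called 1450 genes higher and 1350 lower, against 1377 and 2534 in the main analysis.

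No paired analysis was possible because the groups share no replicate number. With 3 libraries per group an exact test cannot go below 0.1, and Snhg12 and Snhg18 rest on as few as 26 and 29 reads in a library.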
